A study of Mus musculus with 6 samples.

Results

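The genes described here are 10 members of the Ets family of transcription factors that are known from lymphoid and other blood cells: Ets1, Ets2, Fli1, Erg, Elf1, Elf4, Etv6, Gabpa, Elk3 and Elk4. Each was matched by its symbol to probe sets that a table of the array platform pairs with a single gene, and the brightest probe set stood for the gene. All 10 were found among 19937 genes, or 34760 probe sets, on the arrays. The set was chosen by gene family around Ets1, which was selected on its measured difference between the tamoxifen and untreated samples, so the values of Ets1 are given as a description and not as a test of it.

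The cells were pro-B cells of the mouse strain given as C57/BL6, transformed with v-Abl, a viral form of the Abl kinase that holds B cell precursors at an early stage of differentiation in culture. The genotype of all 6 samples was Foxo1f/f; ERCre, meaning that loxP sites flank both alleles of the forkhead factor Foxo1 and that a Cre recombinase is fused to the oestrogen receptor. The control group of 3 samples received no treatment, and the other group of 3 samples received 1 µM tamoxifen for 2 days, which activates the recombinase. The labels call the untreated cells WT and the treated cells Foxo1 knockout, although both carry the floxed alleles and the recombinase. The promoter that drives the recombinase, the number of lines or clones, and whether samples came from separate cultures are all unstated in the sources used here. The p-values therefore take in no more than the spread among these 6 samples, some of which may be technical. Cells given tamoxifen with Foxo1 intact are not among the samples analysed here, so loss of Foxo1, tamoxifen and active recombinase cannot be told apart.

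Ets proteins share a DNA-binding domain, the ETS domain, which recognises short sites built around the letters GGAA. Because this domain is so similar across the family, the members differ mostly in when they are expressed, in their partner proteins and in whether they activate or repress. Ets1 is the founding member and is needed for normal development of B, T and natural killer cells. In B cells it restrains differentiation into antibody-secreting plasma cells.

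The kind of site that these proteins read can be seen in stretches upstream of 2 members. Promoter windows of 300 bases, from 250 bases before to 50 bases after a gene's start, were taken from RefSeq on build GRCm38.p6 and were listed for 8 members in 14 windows. Ets1 and Fli1 had no window. The letters CCGGAAG, a strong Ets site, were searched on both strands and are shown in capitals, here as they read on the gene's own strand. Both stretches are shown because they are the only matches among the members.
Elk4, chr1:132007540-132007570, plus strand: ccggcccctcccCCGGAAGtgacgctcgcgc
Gabpa, chr16:84835019-84835049, plus strand: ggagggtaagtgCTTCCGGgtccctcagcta
In Elk4 the motif starts 68 bases before the gene's start. In Gabpa it lies on the opposite strand, which is why it reads as its reverse complement, and it starts 93 bases before the gene's start. Of all 32851 windows, 8.86% held these letters. The letters TGTTTAC, a forkhead site that Foxo factors bind, were in 0 of the 14 windows on either strand and in 3.65% of all windows, and they share no overlap with the Ets letters. The array data do not measure binding, and a match is only a description of the letters.

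The arrays were on a similar scale, with medians between 100.9 and 109.1 and lower quartiles between 43.3 and 47.3. With 3 arrays a group, precision is limited by their number. Foxo1 had a lower intensity in every tamoxifen sample (647 ± 149 against 134 ± 17.8, SD, n = 3), although the sources used here do not say whether its probe set lies in the deleted part. Markers of pro-B cells were bright: over 11 measured genes, including the surrogate light chain genes Igll1 and Vpreb1, the summed intensity was 17210 to 21053 in untreated and 19474 to 20787 in tamoxifen samples. Of the markers of T cells, 8 of 10 lay below the median of probe set means, with Cd3d at 29.4 and 28.9 in the 2 groups. The same held for 9 of 10 myeloid markers and 7 of 10 endothelial and stromal markers. Megakaryocyte markers lay below it in 2 of 6.

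Between tamoxifen and untreated cells, Ets1 was raised by a factor of 1.64 and the other 9 members did not pass the test. Their log2 fold changes lay between -0.22 and 0.19, with a limma adjusted p of at least 0.764. By limma, with p-values adjusted by Benjamini-Hochberg across the 34760 probe sets, 1 of 10 members passed an adjusted p of 0.05, against 0.0575% of all probe sets (20 in all). Since Ets1 was known to pass when the set was put together, nothing is read from that count. At an unadjusted p under 0.05 there were 2 members, Ets1 and Elk3, where 5.11% of all probe sets lay. The median log2 fold change of the 10 members was 0.06, with 6 positive and 4 negative, against -0.01 over all genes, of which 44.5% were positive. Every fold change is on the log2(intensity + 16) scale after quantile normalisation, which understates the change of dim genes.

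**Figure D1:**
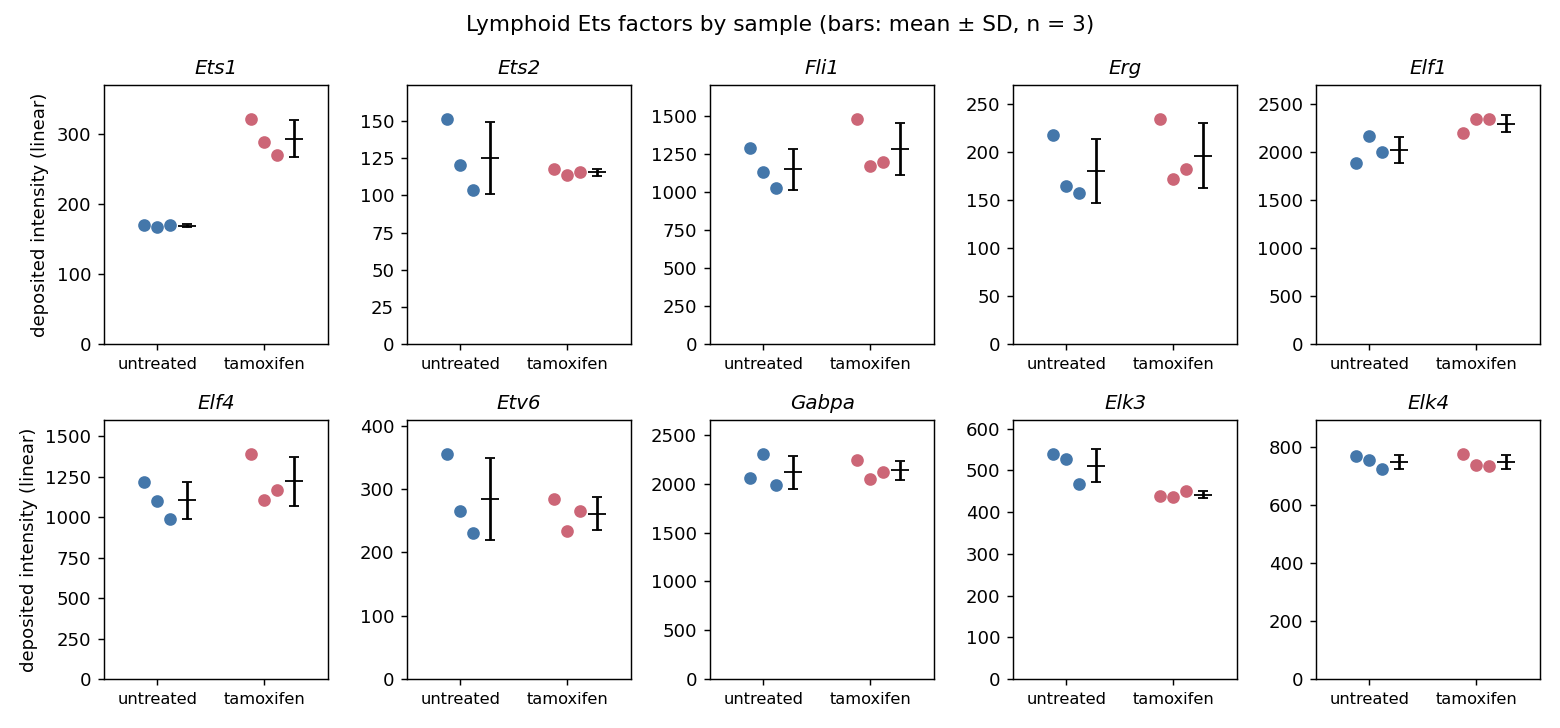
Deposited intensity (linear scale, each panel from 0) of the brightest probe set of each of the 10 members in samples 1, 2 and 3 of each group, from left to right, with the mean and SD of 3 samples as bars. Ets1 lies between 167 and 171 in untreated cells and between 269.7 and 322 after tamoxifen, whereas in most other panels the groups overlap.

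Ets1 had almost the same intensity in the 3 untreated samples, 171, 167 and 169.8 in samples 1, 2 and 3. After tamoxifen it was 322, 288 and 269.7. All 3 tamoxifen values lay above all untreated values, and the treated samples were more spread. The mean was 169 ± 1.69 in untreated and 293 ± 26.5 in tamoxifen samples (SD, n = 3). On the log2 scale the difference was 0.72 ± 0.07 (SE), with a 95% interval of 0.56 to 0.87 and a limma adjusted p = 0.0385.

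The size of the Ets1 difference varied little with the processing, but its place relative to the threshold did. With any 1 array left out the log2 fold change stayed between 0.67 and 0.77. The limma adjusted p was 0.139 without untreated sample 1, 0.188 without untreated sample 2 and 0.186 without untreated sample 3. It was 0.132 without tamoxifen sample 1, 0.273 without tamoxifen sample 2 and 0.181 without tamoxifen sample 3, so Ets1 passed in none of these fits. Of 15 alternative settings in all, Ets1 stayed past the threshold in 3, with an adjusted p between 0.00434 and 0.273 over the 15.

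**Figure D2:**
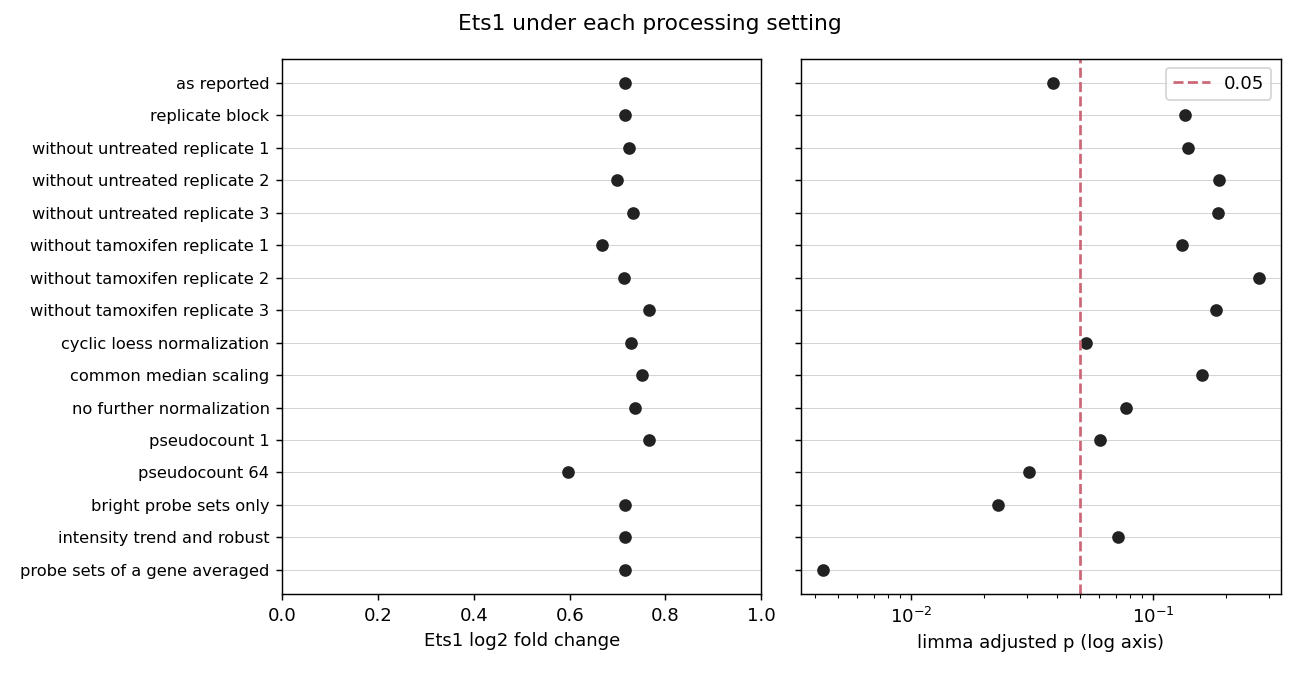
Ets1 log2 fold change (left) and limma adjusted p on a log axis (right) as reported and under 15 alternative settings, with the 0.05 threshold as a dashed line. The fold change lies between 0.60 and 0.77 throughout, while 12 of the 15 alternatives have an adjusted p above 0.05.

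Ets2, the closest relative of Ets1, is a target of the ERK kinases and is expressed in many tissues. It measured 152, 120.5 and 104 in untreated samples 1, 2 and 3, against 118, 113 and 115 in the tamoxifen samples in the same order. The tamoxifen values fell inside the untreated range, which was set mainly by the high value of untreated sample 1. On the log2 scale Ets2 measured -0.07 ± 0.14 (SE), with an interval of -0.40 to 0.25, and without untreated sample 1 it was 0.07. Signal may be shared between close paralogs such as Ets1 and Ets2, and the probe sequences were not used here.

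Fli1 and Erg form a pair of related Ets factors that act in blood stem cells, megakaryocytes and endothelium, and Fli1 is also expressed through much of B cell development. In the RefSeq gene table Fli1 is the protein-coding neighbour of Ets1 on chromosome 9, and Erg is the neighbour of Ets2 on chromosome 16. Fli1 measured 1291, 1129 and 1024 in untreated samples 1, 2 and 3, against 1480.4, 1173 and 1199 in the tamoxifen samples. Its groups overlapped, and in both the sample numbered 1 was the highest. The log2 fold change of Fli1 was 0.15 ± 0.09 (SE), with an interval of -0.05 to 0.36. This interval lies below that of its neighbour Ets1, but the difference between the genes was not tested because Ets1 was chosen for its change.

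Erg measured 218, 165 and 157 in untreated samples 1, 2 and 3, against 234, 171 and 182 in the tamoxifen samples. Sample 1 stood above the other two in each group by more than the groups differed. On the log2 scale Erg measured 0.10 ± 0.15 (SE), with an interval of -0.26 to 0.47, and it was -0.01 without tamoxifen sample 1. Fli1 and Erg are also prominent in endothelial cells and megakaryocytes. Endothelial, stromal and megakaryocyte markers had 0 of 16 measured genes past limma, and 0 at an unadjusted p under 0.05. The summed intensity of the endothelial and stromal markers was 1165 to 1471 in untreated and 1258 to 1520.1 in tamoxifen samples. Pecam1 alone measured 387 to 674 in untreated and 521 to 791 in tamoxifen samples, so this sum depends more on Pecam1 than on any other gene of the list. Of the 10 endothelial and stromal markers, 7 lay below the median of probe set means. The summed intensity of the megakaryocyte markers was 660.5 to 732 in untreated and 641 to 719 in tamoxifen samples.

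Elf1 and Elf4 belong to the Elf branch. Elf1 regulates genes of lymphocytes and of blood stem cells, and Elf4, also called Mef, promotes quiescence in lymphocytes and the killing function of natural killer cells. Elf1 measured 1889.9, 2164 and 2004 in untreated samples 1, 2 and 3, against 2195, 2346 and 2341 in the tamoxifen samples. On the deposited scale every tamoxifen value lay above every untreated one, but by a narrow margin that normalisation closed. The log2 fold change of Elf1 was 0.19 ± 0.10 (SE), with an interval of -0.04 to 0.42. It stayed between 0.12 and 0.26 under all 15 alternatives and passed the test in none of them.

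Elf4 measured 1219, 1099.9 and 990.2 in untreated samples 1, 2 and 3, against 1394, 1104 and 1167 in the tamoxifen samples. The groups overlapped, with sample 1 again the highest of each. Its log2 fold change was 0.13 ± 0.08 (SE), with an interval of -0.06 to 0.33. A second Elf4 probe set was below the lower quartile of every array, at 38.5 ± 2.76 and 36.9 ± 1.19 (SD, n = 3), and gave -0.03 ± 0.07 (SE).

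Etv6, also called Tel, is a repressor needed for blood stem cells in bone marrow and is a frequent partner in leukaemia gene fusions, including one with Abl1. It measured 356, 265 and 231 in untreated samples 1, 2 and 3, against 284, 234 and 266 in the tamoxifen samples. The tamoxifen values lay inside the wide untreated range. On the log2 scale Etv6 measured -0.11 ± 0.15 (SE), with an interval of -0.46 to 0.24, and without untreated sample 1 it was 0.05.

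Gabpa, the DNA-binding subunit of GA-binding protein, works in a complex with a beta subunit, Gabpb1 or Gabpb2. It serves promoters of mitochondrial and ribosomal genes and, in early B cells, of lymphoid genes. Gabpa measured 2056, 2312 and 1993 in untreated samples 1, 2 and 3, against 2245, 2053 and 2120.1 in the tamoxifen samples. The groups overlapped almost completely, and the log2 fold change was 0.01 ± 0.07 (SE), with an interval of -0.15 to 0.18. In the RefSeq table its neighbour is Atp5j, a subunit of ATP synthase, which measured -0.02 ± 0.08 (SE). The beta subunits measured -0.17 ± 0.06 (SE) for Gabpb1 and 0.07 ± 0.07 (SE) for Gabpb2 on the log2 scale, and neither passed limma.

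Elk3 and Elk4 are ternary complex factors, which sit on DNA beside serum response factor and pass on ERK signals to immediate early genes. Elk3, also called Net, represses in the absence of the signal. It measured 541, 526 and 467 in untreated samples 1, 2 and 3, against 439, 435 and 451 in the tamoxifen samples. All tamoxifen values lay below all untreated values. Its difference on the log2 scale was -0.22 ± 0.07 (SE), with an interval of -0.38 to -0.05, and it did not pass over all probe sets (limma adjusted p = 0.764). Under the 15 alternatives it ran from -0.26 to -0.17 and passed in none. Counting Ets1, Elf1 and Elk3, 3 of 10 members had groups without overlap on the deposited scale, against 8.51% of all probe sets, in a set that was chosen with results of this contrast known.

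Elk4, also called Sap1, contributes to thymocyte development. It measured 771, 755 and 723 in untreated samples 1, 2 and 3, against 778, 737 and 734 in the tamoxifen samples. The 2 means, 749.9 ± 24.2 and 749.7 ± 24.8 (SD, n = 3), were nearly equal. The log2 fold change was -0.01 ± 0.06 (SE), with an interval of -0.15 to 0.13, and with scaling to the median of each array it was 0.016. Of the 9 members other than Ets1, 8 had an interval that spans 0, Elk3 being the exception. A miss of the threshold does not show that these genes were unchanged, and the intervals reach from -0.46 to 0.47 over the 9 genes.

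A feature that several members shared, noticed after their values were seen, was that the sample numbered 1 ranked highest in each group. On the deposited scale this sample was the highest of its group in both groups for 7 of 10 members, Ets1, Ets2, Fli1, Erg, Elf4, Etv6 and Elk4. The margin could be small, as for Ets1 in untreated samples, with 171 in sample 1 against 169.8 in sample 3. Over all probe sets 16.5% showed it. That share includes dim probe sets, whereas 0 of the 10 members lay below the median of probe set means. The array of tamoxifen sample 1 also had the highest upper quartile, 298.8, whereas that of untreated sample 1, 285.6, lay between the other two of its group. The part that array-wide differences play in the members' pattern was not tested.

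Among the other Ets family genes, 1 of 16 measured genes passed the test, against 0.0575% of all probe sets. This list was chosen with earlier results of these data known, so nothing is read from that count. The gene that passed was Spib, a close relative of PU.1 that acts in mature B cells and in plasmacytoid dendritic cells. Spib measured 172, 143 and 149.5 in untreated samples 1, 2 and 3, against 443, 383 and 385 in the tamoxifen samples. It rose by 1.29 ± 0.08 (SE) on the log2 scale, with no overlap between the groups (limma adjusted p = 0.0138). The call held without untreated sample 1 (adjusted p = 0.0276) but not without untreated samples 2 (0.114) or 3 (0.13), nor without tamoxifen samples 1 (0.0994), 2 (0.121) or 3 (0.142). PU.1 itself, encoded by Spi1, measured 0.15 ± 0.08 (SE).

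Etv5, an Ets factor of the PEA3 group that is induced by ERK signals, had the most negative value of the family. It measured 681, 795 and 718 in untreated samples 1, 2 and 3, against 505, 471 and 473 in the tamoxifen samples, with no overlap. On the log2 scale the difference was -0.60 ± 0.08 (SE), short of the threshold (limma adjusted p = 0.11), and a second probe set gave -0.51 ± 0.09 (SE). Etv5 passed in 1 of 15 alternatives, the fit on genes with their probe sets averaged (limma adjusted p = 0.0304; range over the 15 0.0304 to 0.505).

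The other two PEA3 genes, Etv1 and Etv4, measured -0.42 ± 0.30 and -0.13 ± 0.09 (SE). The interval of Etv1 spans 0, from -1.14 to 0.30. A second, dimmer Etv1 probe set gave -0.45 ± 0.15 (SE), with an interval of -0.80 to -0.10, and did not pass over all probe sets (limma adjusted p = 0.796). Etv3, a repressor, measured 0.35 ± 0.10 (SE) with a limma adjusted p = 0.691. The remaining genes, Elf2, Elf3, Elf5, Ehf, Elk1, Erf, Etv2, Etv3l, Spdef and Spic, lay between -0.18 for Etv2 and 0.08 for Elk1. Spic and Ehf were dim, with means below the lower quartile of probe set means. The family's median outside the set was -0.04, with 5 of 16 positive.

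**Figure D3:**
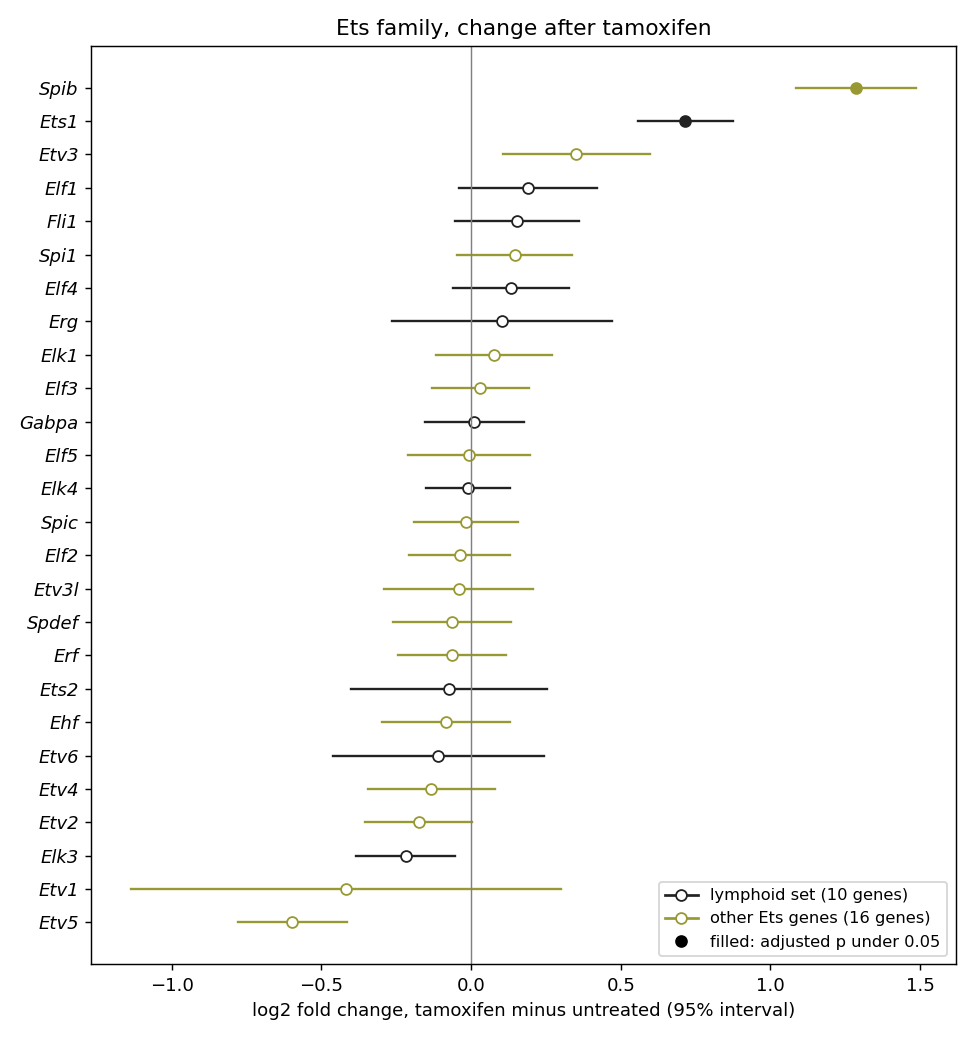
Log2 fold change (tamoxifen minus untreated) with its 95% interval for the 10 lymphoid Ets genes (dark) and the 16 other Ets genes measured (olive), 3 samples per group. Filled points pass an adjusted p of 0.05, which are Spib at 1.29 and Ets1 at 0.72, and Etv5 lies lowest at -0.60.

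Proteins that work with Ets factors were read from a list of 25 genes, of which 20 were measured, and 0 passed limma. At an unadjusted p under 0.05 there were 2 positive and 3 negative genes, where 5.11% of all probe sets lay, and the list's median was 0.00. The brightest were the B lineage factors Ebf1 (-0.51 ± 0.07, SE) and Pax5 (0.38 ± 0.13), the ubiquitin ligase component Cop1 (0.08 ± 0.07), which marks some Ets proteins for degradation, and the co-activator Crebbp (0.10 ± 0.10). Pax5 recruits Ets1 to the promoter of Cd79a. Runx1, which binds DNA together with Ets1, and Sp100, a nuclear body protein that interacts with Ets1, were picked out after their values were seen. Runx1 measured -0.34 ± 0.11 (SE) with a limma adjusted p = 0.815. Sp100 was 669 ± 110 in untreated and 1219 ± 112 in tamoxifen samples (SD, n = 3), or 0.85 ± 0.15 (SE) on the log2 scale (limma adjusted p = 0.261).

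Genes that Ets factors are known to control were read from 3 lists, and limma called 0 members in each of them. Of 14 serum response genes, which Elk3 and Elk4 serve, 6 were positive and 8 negative, with a median of -0.05. Low signal limits this list, as 6 of the 14 genes lay below the median of probe set means. At an unadjusted p under 0.05 there was 1 positive gene and there were 3 negative ones, where 5.11% of all probe sets lay. The brightest were Mcl1, a survival protein of the BCL2 family (0.24 ± 0.07, SE), Egr3 (0.08 ± 0.09), the ERK phosphatase Dusp6 (-0.35 ± 0.11) and Srf, the partner of the Elk proteins (0.07 ± 0.14). Egr1, picked out after its value was seen, measured -0.66 ± 0.13 (SE) with a limma adjusted p = 0.337.

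For GABP, 12 of 14 listed mitochondrial genes were measured and had a median of -0.05, with 4 positive and 8 negative, where 44.5% of all genes were positive. At an unadjusted p under 0.05 there were 2 genes, both negative, where 5.11% of all probe sets lay. The subunits Atp5b, Cox6b1, Cox5b and Cox4i1, the brightest of the list, measured 0.01 ± 0.06, 0.00 ± 0.09, -0.01 ± 0.06 and -0.11 ± 0.11 (SE). Tfb1m, a mitochondrial ribosomal RNA methyltransferase, and Nrf1, a regulator of respiratory genes, were this pair and are named for that reason, at -0.29 ± 0.10 and -0.16 ± 0.06 (SE).

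The list of lymphoid genes with described Ets control had the most positive median of the lists, 0.18 over 22 measured genes of 24, of which 16 were positive. At an unadjusted p under 0.05 there were 9 positive and 3 negative genes, where 5.11% of all probe sets lay in either direction, and several of them are B lineage genes that earlier results of these data had shown. The brightest were Igll1 (0.26 ± 0.08, SE), Vpreb1 (0.19 ± 0.08), Cd79b (0.52 ± 0.07), which signals for the antigen receptor, and Pax5. A further 7 genes were picked out after their values were seen. Cd79a, whose promoter Ets1 and Pax5 bind together, measured 0.32 ± 0.11 (SE), and Ptpn22, a phosphatase that restrains antigen receptor signalling, 0.67 ± 0.20 (SE). Il2ra, a chain of the interleukin-2 receptor, measured 0.46 ± 0.10 and the integrin chain Itgal 0.38 ± 0.06 (SE). Dntt, which adds bases at antigen receptor joints, was the most negative at -1.26 ± 0.25 (SE), and Blk, a B cell kinase of the Src family, measured -0.46 ± 0.18 (SE). Prdm1, the plasma cell regulator that Ets1 opposes, was dim, with 35.7 ± 5.78 and 36.7 ± 1.88 (SD, n = 3). These limma values did not pass over all probe sets, and whether the changes of Ets1 or Spib bear on any of these genes was not tested. Several genes of this list are also pro-B markers, and of the 11 measured pro-B markers 5 positive and 2 negative ones had an unadjusted p under 0.05, where 5.11% of all probe sets lay, with 0 past limma. They lay on both sides of 0, with Cd79b at 0.52, Ebf1 at -0.51 and Dntt at -1.26, so their summed intensity, which overlapped between the groups, does not show these differences. The part that the pro-B markers' differences play in those of the list was not tested.

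**Figure D4:**
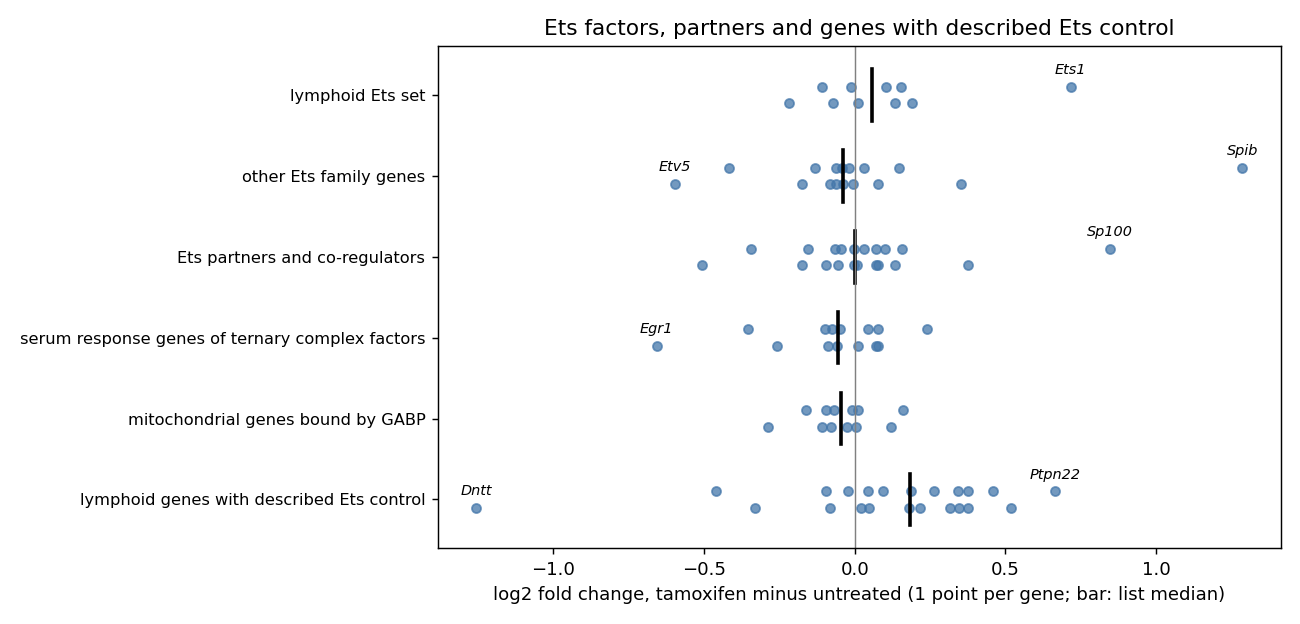
Log2 fold change (tamoxifen minus untreated) of each measured gene (points) in 6 lists of Ets factors, partners and genes with described Ets control, with list medians as bars and genes beyond 0.55 in either direction named. Medians run from -0.05 for the serum response and mitochondrial lists to 0.18 for the lymphoid list, and Dntt at -1.26 and Spib at 1.29 are the extremes.

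The genes whose values ran most like those of Ets1 across the 6 samples were named by Pearson's r on the normalised log2 scale, over 10610 genes at or above the median of probe set means. They were Tnrc6c, a component of microRNA silencing complexes (r = 0.997), Tbc1d16, a Rab GTPase-activating protein (0.992), Cyth4, an exchange factor for Arf GTPases (0.992), Skap2, an adaptor of leukocyte adhesion (0.991), and Spib (0.99). The lowest were Tgfb3, a TGF-beta ligand (-0.998), Tfdp1, the partner of E2F factors (-0.994), and Ugcg, which makes glucosylceramide (-0.994). The 6 points of each correlation fall into the 2 groups of the study, so r mostly restates the difference between the groups, and it is a description of these arrays. The sizes differed widely: Tnrc6c differed by a factor of 1.09 and Cyth4 by 1.36, and neither passed limma, whereas Spib rose by a factor of 2.44.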

How the data were processed

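Total RNA of 3 untreated and 3 tamoxifen samples was converted to biotinylated cRNA (200 ng input) and hybridised to microarrays, per the labels' protocols. Each deposited value is an intensity (linear scale), which the authors had summarised to 1 per probe set. Background correction, summarisation and normalisation are not given in the sources used here. Groups and numbers come from the titles. Intensities were converted to log2(value + 16), quantile normalised and compared by limma 3.58.1 (lmFit, eBayes; R 4.3.3, two-sided, Benjamini-Hochberg over 34760 probe sets, threshold 0.05, no covariate). Of the probe sets, 21640 had 1 gene symbol, 1321 several and 11799 were not listed. Control probe sets are not marked, so none was left out.

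The members, lists and rules were chosen with earlier results of these data known. The rule named all members, all other Ets genes, Foxo1, called and up to 4 brightest genes of each list, and the 5 most and 3 least like Ets1. Other genes of the lists that are named, among them the beta subunits of GABP, Atp5j and Cd3d, were chosen after their values were seen. Genes of the lists without a single-symbol probe set were not analysed here. As 15 alternatives, a replicate block, each array left out in turn, other normalisations, pseudocounts and variance models, bright probe sets only and averaged probe sets were tried. The fit was tested on 10 simulated data sets of 3 against 3, each with 200 raised probe sets of at least median intensity. It recovered 34.9% of those raised by a factor of 1.5, 71.3% at 2 and 94.2% at 4. Simulated noise was drawn independently for each array, and the real comparison called 20 probe sets in all, so these shares may not hold for it. The mean number of false calls was 7.4. Figures were drawn with matplotlib 3.10.9.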

Additional observations from a re-analysis of the deposited data

How the results depend on the processing

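Ets1 was positive under all 15 alternatives and lost its call in 12. With 1 array left out its log2 fold change ran from 0.67 to 0.77 and members called were 0. It was 0.72 under the replicate block (limma adjusted p = 0.136) and with an intensity trend and robust eBayes, 0.73 with cyclic loess, 0.75 with a common median, 0.74 with no further normalisation and 0.77 with a pseudocount of 1. Members called were 0 in each of these, with 2 members at an unadjusted limma p under 0.05 (3 under the block and without tamoxifen sample 1). The cause was not tested. Other Ets genes called were 0 under the block (4 at an unadjusted p under 0.05), 0 with a common median (3), 0 to 1 with an array left out (3 or 4) and 2, Spib and Etv5, with averaged probe sets. Over all probe sets, 20 calls became 0 under the block (2525 at an unadjusted p under 0.05), 0 to 6 with an array left out (at least 1360), 3 with a common median, 12 with no further normalisation, 11 with a pseudocount of 1, 12 with trend and robust, 46 with bright probe sets only and 73 with averaged probe sets, where fewer features were tested.

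The other 9 members passed under 0 of 135 alternative values, and 9 of these changed sign, all near 0. With 1 array left out Elk4 ran from -0.032 to 0.010, Gabpa from -0.030 to 0.063, Erg from -0.014 to 0.240, Ets2 from -0.205 to 0.069 and Etv6 from -0.221 to 0.050. With a common median Elk4 was 0.016, and with cyclic loess Gabpa was -0.00087. Deviations of same-numbered samples correlated at 0.256, 0.0547 and 0.302. Untreated 1 and untreated 3 correlated best with the tamoxifen sample of the same number, whereas untreated 2 correlated best with tamoxifen 1 (0.103). The labels do not say whether same-numbered samples belong together, and these values do not settle it. Low signal limits Spic, Ehf and Prdm1.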
